A study of Mus musculus with 2 samples.

Results

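A rule for keratinocytes of the hair follicle with RNA of stem cell and outer root sheath genes picked 546 of the 18965 retained cells. These were 217 of 7946 cells in the library of Shi-Bi-Man plus imiquimod skin and 329 of 11019 in the library of imiquimod skin. As described below, the name held for only some of the picked cells. All of the picked cells were chosen by their counts. A cell had to contain at least 2 of the 4 genes Lhx2, Sostdc1, Lgr5 and Fst. The sum of Krt5, Krt14 and Krt15, the keratins of basal epithelial cells, had to reach 30 per 10000 counts of the cell. The stress keratins Krt6a, Krt6b and Krt16 together had to stay under 30, the suprabasal keratins Krt1 and Krt10 under 100, and the upper follicle genes Krt79 and Cst6 under 50 per 10000. Ptprc, the pan-leukocyte gene, had to be at 0. Values of these genes are therefore given as a description. The selected cells are called member cells.

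Both libraries were single-cell 3′ RNA profiles, and the mice were C57BL/6 animals, 7 weeks old, from which dorsal skin was taken. In the SBM group, so called in the labels, mice received Shi-Bi-Man, which the title of the series calls a natural product, together with imiquimod. In the IMQ group they received imiquimod alone. The title also names the IL-23 and Th17 axis and CXCL16. Imiquimod is a Toll-like receptor agonist used to induce psoriasis-like inflammation in the skin, so every cell described came from imiquimod-treated skin, and untreated skin was not analysed here. Each group was 1 library, the number of mice behind a library was not given in the sources used here, and library and treatment cannot be told apart. No difference between the libraries had a replicate check, no test was run, and every interval is an exact 95% interval that covers counting error only.

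The bulge of the hair follicle holds slow-cycling stem cells, and the hair germ beneath it is the first compartment to divide when a resting follicle enters its growth phase. The outer root sheath is the outer epithelial sleeve of the follicle and is continuous with the bulge. Bone morphogenetic protein (BMP) signals keep bulge cells quiescent, while Wnt and Hedgehog signals drive growth of the germ. Lhx2 is a transcription factor of follicle stem cells, Lgr5 a receptor for R-spondins, Sostdc1 a secreted modulator of BMP and Wnt signals, and Fst a secreted binder of activins.

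The SBM library held 20837259 counts in 8054 barcodes and the IMQ library 28920316 counts in 11316 barcodes. Member cells had a median of 4129 counts and 1869 genes in the SBM library and 5245 counts and 1957 genes in the IMQ library, with a median of 5.24% with SBM and 5.54% with IMQ of counts from mitochondrial genes. A total of 49 barcodes occurred in both libraries, of which 2 were member cells with SBM, 0 were with IMQ and 0 were members in both. Fibroblast markers summed to 24592 CPM, the counts scaled to a total of 1000000, over all retained cells of the SBM library and 10931 CPM over those of the IMQ library. Langerhans cell markers summed to 3507 CPM in the SBM library and 12511 CPM in the IMQ library.

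Member cells were 2.73% of retained cells in the SBM library (2.38 to 3.11) and 2.99% in the IMQ library (2.68 to 3.32). Among keratinocytes that met the keratin and Ptprc criteria, they were 21.6% of 1004 cells with SBM and 22.2% of 1480 cells with IMQ. Both pairs of intervals overlapped. Member cells were deeper than other cells of this keratin range: those with none of the 4 follicle genes had medians of 1574 counts with SBM and 1532 with IMQ. After every cell was thinned to 1000 counts before the rule was applied, member cells were 1.34% with SBM and 1.28% with IMQ. Member cells just inside the floor on basal keratins had 30.3 per 10000 with SBM and 30 with IMQ, and the nearest cells outside it 29.9 with SBM and 29.8 with IMQ. For the stress keratins the highest member cells had 24 and the nearest cells outside 30.1 with SBM, and 26.4 and 30.6 with IMQ. For Krt1 and Krt10 these values were 99 and 102 with SBM, and 94.9 and 115 with IMQ. The ceiling on Krt79 and Cst6 alone kept out 18 cells with SBM and 80 with IMQ, of which the nearest had 54.1 with SBM and 51.4 with IMQ, while the highest member cells had 49.5 with SBM and 49.3 with IMQ.

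The genes that placed a cell among the members differed between the libraries. Lhx2 was detected in 59.4% of member cells of the SBM library and 28% of those of the IMQ library. Lgr5 was detected in 37.8% of member cells with SBM and 20.1% with IMQ. Fst ran the other way, with 59.4% with SBM and 87.8% with IMQ, while Sostdc1 was detected in 82.9% with SBM and 81.2% with IMQ. Cells that qualified through Sostdc1 and Fst alone were 72 of 217 members with SBM and 207 of 329 with IMQ. As levels of summed counts, Lhx2 stood at 386 CPM in member cells of the SBM library and 106 CPM in those of the IMQ library, and Lgr5 at 146 CPM with SBM and 52.6 CPM with IMQ.

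The name was checked against 5 markers, of which Ptn alone was not part of the rule. Ptn, which encodes the growth factor pleiotrophin, stood at 588 CPM in member cells with SBM and 475 CPM with IMQ. In cells of the same keratin range without follicle genes it stood at 96.8 CPM with SBM and 77.6 CPM with IMQ, in upper follicle keratinocytes at 214 CPM with SBM and 87.3 CPM with IMQ, and in fibroblasts at 9.53 CPM with SBM and 9.92 CPM with IMQ. After thinning to 1000 counts, Ptn was present in 40.8% of member cells with SBM and 34.8% with IMQ. In fibroblasts, which should lack it and had medians of 2109 counts with SBM and 2122 with IMQ, the shares were 0.992% with SBM and 0.755% with IMQ. Without thinning, 75.1% of member cells with SBM and 68.7% with IMQ had a count. Krt15, a basal and bulge keratin used by the rule, stood at 2286 CPM with SBM and 2208 CPM with IMQ in member cells and at 4237 CPM with SBM and 1080 CPM with IMQ in the cells without follicle genes. The cells without follicle genes also held sebaceous markers at 12354 CPM with SBM and 14497 CPM with IMQ, so they are named here by their rule and not as interfollicular epidermis.

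Clustering of the member cells of both libraries, run without the genes of the rule, gave 6 subgroups, numbered 0 to 5, and showed that the name held for only some of them. Subgroup 3 (127 cells) was led by Wif1, Nppc and Rflnb and subgroup 1 (119 cells) by Cnih2, Col14a1 and Mtmr7. Lhx2 stood at 405 CPM and Lgr5 at 156 CPM in subgroup 3, and at 518 and 204 CPM in subgroup 1. Subgroup 0 (227 cells) was led by Defb1, Ccl27a and Aldh3a1. Here the data went against the name: Lhx2 stood at 13.9 CPM and Lgr5 at 9.82 CPM, while Sostdc1 and Fst, through which these cells had entered, stood at 766 CPM for Sostdc1 and 606 CPM for Fst. Ptn stood at 321 CPM with SBM and 243 CPM with IMQ in subgroup 0, beside 1627 CPM with SBM and 1273 CPM with IMQ in subgroup 3. Subgroup 2 (19 cells) was led by Clec3b and Dcn, with fibroblast markers at 17643 CPM. Subgroup 4 (18 cells) was led by Acaa1b and Acoxl among named genes, with sebaceous markers at 19576 CPM and a median of 11601 counts. Subgroup 5 (36 cells) was led by S100a9 and S100a8.

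Subgroups 1 and 3 differed from each other in genes of quiescence and growth. Cd34, a surface marker of bulge cells in the mouse, stood at 108 CPM in subgroup 3, 18.8 CPM in subgroup 1 and 9.82 CPM in subgroup 0. Krt15 stood at 5147 CPM in subgroup 3, 1338 CPM in subgroup 1 and 2221 CPM in subgroup 0. The chemokine Cxcl14 stood at 1427 CPM in subgroup 3, 334 CPM in subgroup 1 and 127 CPM in subgroup 0. The Hedgehog target Gli1 was at 74.1 CPM in subgroup 3, 133 CPM in subgroup 1 and 2.45 CPM in subgroup 0. Mki67, which marks cycling cells, stood at 38 CPM in subgroup 3, 502 CPM in subgroup 1 and 208 CPM in subgroup 0. Genes of the proliferation list summed to 1583 CPM in subgroup 3, 8048 CPM in subgroup 1 and 3290 CPM in subgroup 0. Since clustering used these genes, the values describe the subgroups and test nothing. Melanocyte markers summed to 891 CPM in subgroup 3, 331 CPM in subgroup 1 and 15.5 CPM in subgroup 0.

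**Figure D1:**
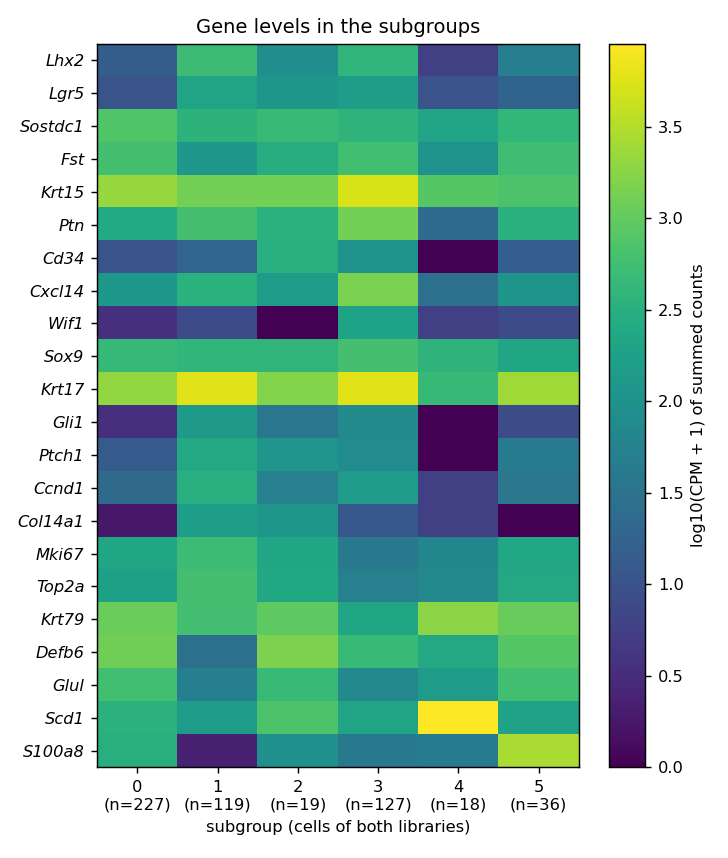
Levels of 22 genes in the 6 subgroups of member cells, as log10(CPM + 1) of counts summed over both libraries; rows are genes, columns are subgroups with their number of cells, and the colour scale gives the level. Lhx2 and Lgr5 were high in subgroups 1 and 3 and near the low end in subgroups 0 and 4, and Mki67 and Top2a had their highest levels in subgroup 1.

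Subgroup membership and library were nearly inseparable for subgroup 1. Of the 119 cells of subgroup 1, 114 came from the SBM library and 5 from the IMQ library. Subgroup 0 held 63 SBM and 164 IMQ cells, subgroup 3 held 31 SBM and 96 IMQ cells, and subgroup 5 held 1 SBM and 35 IMQ cells. The genes that define subgroup 1 also differed between the libraries, so these numbers are no result about cell types, and a cluster made mostly of 1 library may be that library. Each ratio over all member cells therefore compares mostly subgroup 1 with SBM against mostly subgroups 0 and 3 with IMQ. Values without subgroup 1, and within subgroups 0 and 3, the only ones with at least 20 cells in each library, are given beside the main results. Clustering used genes that are compared here, so such values are a description.

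Compared over all member cells, most measured genes of the cell cycle list and of the Hedgehog, FGF and Notch list were higher in the SBM library than in the IMQ library, and most of the IL-17-response and MHC class I lists were lower. For Sox9 and Cd34, which mark bulge cells, the counting interval of the ratio included 0. Without subgroup 1, the list medians of cell cycle, IL-17-response and MHC class I genes lay between 0.06 and 0.20. Counts of member cells were summed per library and given as CPM, and the log2 ratio of SBM over IMQ was computed for the 7142 genes with at least 50 counts. Of these, 21.8% were at least 1.5-fold higher and 10.2% at least 1.5-fold lower, and the median ratio was 0.15. With scaling by trimmed means (TMM) or DESeq2 size factors the median moved by -0.22 (TMM) and -0.23 (DESeq2), and the share of calls that were higher was 43.1% (TMM) and 42.6% (DESeq2) in place of 68%. Under TMM the medians of the stress and wound list (-0.04) and of the interferon list (-0.16) changed sign, and those of the bulge and BMP lists came to 0.08. Counts of list members are read against the shares over all genes, and genes of the rule were left out of every list. Where a setting left cells out, a list median covers only genes with at least 50 counts in the remaining cells.

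**Figure D2:**
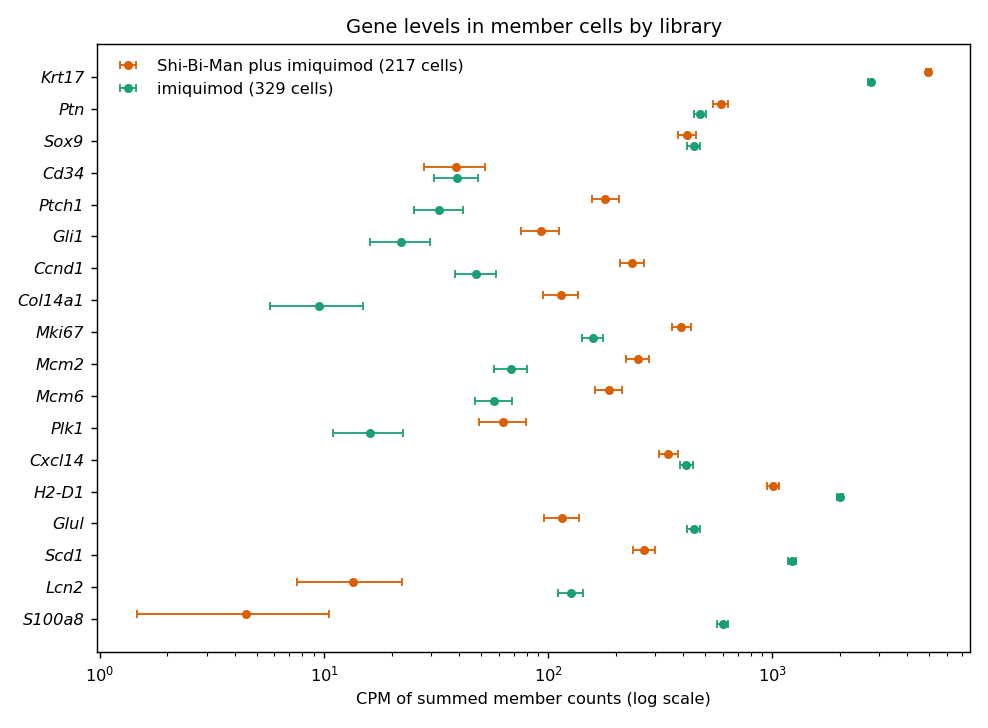
Levels of 18 genes in member cells after Shi-Bi-Man plus imiquimod (orange, 217 cells) and after imiquimod (green, 329 cells), as CPM of summed counts on a log scale; bars are exact Poisson 95% intervals for counting error. S100a8 stood at 4.5 CPM with Shi-Bi-Man plus imiquimod and 602 CPM with imiquimod, and Ptch1 at 180 CPM with Shi-Bi-Man plus imiquimod and 32.6 CPM with imiquimod, while the intervals of Cd34 and of Sox9 overlapped.

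Cell cycle genes had the largest list median. Of 31 measured members of the proliferation list, 30 were at least 1.5-fold higher with SBM and 0 lower, with a median log2 ratio of 1.34. The shares over all genes were 21.8% higher and 10.2% lower. Mki67 stood at 393 CPM in member cells of the SBM library and 158 CPM in those of the IMQ library, a log2 ratio of 1.32. After thinning, 23.2% of member cells with SBM and 11.8% with IMQ had a count of Mki67, and 3.31% of fibroblasts with SBM and 3.4% with IMQ. Without thinning the shares of member cells were 48.4% with SBM and 31% with IMQ. The helicase subunits of DNA replication Mcm2 (252 CPM with SBM and 68.1 CPM with IMQ, log2 ratio 1.88) and Mcm6 (186 CPM with SBM and 57.1 CPM with IMQ, log2 ratio 1.70), the mitotic kinases Plk1 (63 CPM with SBM and 16 CPM with IMQ) and Aurkb (54.9 CPM with SBM and 13.5 CPM with IMQ) were likewise higher with SBM. Without subgroup 1 the list median was 0.20, and Mcm6 had a ratio of -0.26. Clustering used these genes and subgroup 1 came mostly from the SBM library, so these 2 values are a description and test nothing. Within subgroup 0 the list median was 0.13 over 25 measured members, beside -0.01 over all genes. Within subgroup 3 it was -0.38 over 5 members, beside -0.07. In cells without follicle genes the list median was 0.41, beside 0.04 over all genes, and in upper follicle keratinocytes 0.95, beside 0.09.

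Since Mcm6 and Plk1 stand for the replication and the mitotic part of this list, their promoters are shown, as listed by RefSeq for build GRCm38.p6 from 250 bases before to 50 bases after the gene start. The Mcm6 promoter lies on the minus strand at chr1:128359656-128359955 and the Plk1 promoter on the plus strand at chr7:122159185-122159484. Capitals mark the E2F-type motif TTTGGCGC in Mcm6 and the cell cycle homology region motif TTTGAA in Plk1.
Mcm6: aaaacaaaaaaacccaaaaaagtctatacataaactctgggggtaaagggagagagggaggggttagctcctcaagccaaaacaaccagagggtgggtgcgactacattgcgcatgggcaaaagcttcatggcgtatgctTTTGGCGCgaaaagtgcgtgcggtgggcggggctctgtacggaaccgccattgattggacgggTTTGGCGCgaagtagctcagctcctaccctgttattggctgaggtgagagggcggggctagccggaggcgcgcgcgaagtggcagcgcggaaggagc
Plk1: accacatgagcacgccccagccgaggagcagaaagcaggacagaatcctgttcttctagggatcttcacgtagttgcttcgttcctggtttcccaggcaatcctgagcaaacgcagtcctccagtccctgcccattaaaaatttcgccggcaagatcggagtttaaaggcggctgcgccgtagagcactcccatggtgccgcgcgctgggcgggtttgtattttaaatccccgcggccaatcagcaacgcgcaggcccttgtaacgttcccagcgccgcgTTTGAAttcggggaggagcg
Both strands were searched, and the motifs share no overlap in their letters beyond the run TTTG. TTTGGCGC occurred at 2 positions in the Mcm6 promoter and in 3 of the 27 list members with a promoter in the table, Mcm3, Mcm5 and Mcm6, against 0.514% of 32851 promoters. TTTGAA occurred in 13 of the 27, against 17.9% of all promoters. List counts are genes with a match in any of their promoters, while the shares are of promoter entries, so they are not directly comparable. A match describes letters in this window and shows no binding.

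Hedgehog pathway genes were also higher with SBM. Ptch1 (chr13:63508328-63573598, GRCm38), the Hedgehog receptor and itself a target of the pathway, stood at 180 CPM in member cells of the SBM library and 32.6 CPM in those of the IMQ library, a log2 ratio of 2.46 (2.06 to 2.89). The transcription factor Gli1 stood at 92.6 CPM with SBM and 22 CPM with IMQ (log2 ratio 2.06). The ligand Shh had 5 counts with SBM and 2 counts with IMQ. The Notch glycosyltransferase Lfng stood at 30.6 CPM with SBM and 9.52 CPM with IMQ. Hedgehog, FGF and Notch signalling had 18 measured genes, of which 12 were higher and 0 lower, and the median was 0.95. All measured genes had shares of 21.8% higher and 10.2% lower. Without subgroup 1 the list median was 0.62, the ratio of Gli1 -0.36 and that of Ptch1 0.83. The list median was 0.36 over 7 genes within subgroup 0 and -0.11 over 6 genes within subgroup 3. Within subgroup 0 Ptch1 had 19.8 CPM with SBM (5 counts) and 10.3 CPM with IMQ (10 counts). Within subgroup 3 it had 75.7 CPM with SBM (6 counts) and 80.5 CPM with IMQ (36 counts).

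The list median of this pathway also differed with the choice of cells. It was -0.05 for cells with at least 3 of the 4 follicle genes and -0.35 without cells that held markers of another class. Genes with at least 50 counts fell from 7142 to 2788 and 1447 in these choices. The list genes behind the medians could therefore differ too. In thinned cells Ptch1 was present in 9.48% of members with SBM and 3.73% with IMQ, and in 5.46% of fibroblasts with SBM and 3.55% with IMQ. Without thinning its shares of member cells were 38.2% with SBM and 12.2% with IMQ. In the cells without follicle genes Ptch1 stood at 17.9 CPM with SBM and 19.4 CPM with IMQ, and in upper follicle keratinocytes at 37.3 CPM with SBM and 11.2 CPM with IMQ. The list median was 0.13 over 15 measured genes in the cells without follicle genes and 0.96 over 7 in upper follicle keratinocytes. A higher list median was therefore not particular to member cells.

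Of 10 measured hair germ genes, 7 were higher and 1 was lower, beside 21.8% higher and 10.2% lower over all genes. The list median was 0.82, with 0.30 without subgroup 1. Cdh3, the P-cadherin of the germ, stood at 96.2 CPM with SBM and 55.6 CPM with IMQ. Wnt10a, a Wnt ligand of early follicle growth, was the lower one, at 36.9 CPM with SBM and 70.6 CPM with IMQ. Its ratio was 0.41 without subgroup 1, 0.34 (-0.40 to 0.98) within subgroup 0 and 0.85 (-0.68 to 2.05) within subgroup 3. Both of these intervals included 0. Other germ and anagen genes were too sparse for a comparison: Lef1 had 9 counts with SBM and 23 counts with IMQ, Bmp6 had 9 with SBM and 32 with IMQ, and Fgf18 had 1 with SBM and 3 with IMQ.

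Among 20 measured Wnt pathway genes, 11 were higher and 2 lower with SBM, beside 21.8% higher and 10.2% lower over all genes. The list median was 0.70. The receptor Fzd2 stood at 95.3 CPM in member cells of the SBM library and 22.5 CPM in those of the IMQ library. Its log2 ratio was 2.07 in all member cells and 2.01 without subgroup 1. Fibroblasts held Fzd2 at 150 CPM with SBM and 103 CPM with IMQ. Tcf7l1, a repressor that maintains follicle stem cells, stood at 42.3 CPM with SBM and 12 CPM with IMQ, and Lgr6, an R-spondin receptor of the isthmus above the bulge, at 161 CPM with SBM and 55.6 CPM with IMQ. The secreted inhibitor Sfrp1 stood at 228 CPM with SBM and 89.1 CPM with IMQ, with a ratio of 1.24 without subgroup 1. Another secreted inhibitor, Wif1, had the opposite order, at 11.7 CPM with SBM and 49.6 CPM with IMQ, and its ratio was -2.04 (-3.04 to -1.24). Wif1 came mostly from subgroup 3, where it stood at 101 CPM in cells of the SBM library (8 counts) and 208 CPM in those of the IMQ library (93 counts).

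Genes of BMP, activin and TGF-beta signalling were higher in 8 and lower in 2 of 25 measured members. Over all genes, 21.8% were higher and 10.2% lower. The list median was 0.30, and 0.08 with TMM scaling. The 2 lower members, named after their values were seen, were the BMP ligands Bmp2 (8.99 CPM with SBM and 20.5 CPM with IMQ) and Bmp7 (40.5 CPM with SBM and 62.1 CPM with IMQ). Ltbp1, which anchors latent TGF-beta in the matrix, stood at 99.8 CPM with SBM and 12 CPM with IMQ, and the BMP antagonist Grem1 at 72.9 CPM with SBM and 11 CPM with IMQ. Id3, a transcriptional target of BMP signals, stood at 865 CPM with SBM and 359 CPM with IMQ, a ratio of 1.27 (1.13 to 1.41). Without subgroup 1 these genes were higher too, with ratios of 2.77 for Ltbp1, 3.59 for Grem1 and 1.23 for Id3. Upper follicle keratinocytes had ratios of 3.43 for Ltbp1 and 1.89 for Id3, so these differences were not particular to member cells. Grem1 had 3 counts with SBM and 5 counts with IMQ there. The cells without follicle genes had ratios of 0.55 for Ltbp1, -1.13 for Grem1 and 0.44 for Id3. Within subgroup 3 Id3 stood at 2258 CPM in cells of the SBM library and 939 CPM in those of the IMQ library, and Grem1 at 542 CPM with SBM and 42.5 CPM with IMQ. Within subgroup 0 Id3 stood at 554 CPM with SBM and 194 CPM with IMQ.

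Fibroblast RNA was higher in the same library. Fibroblast markers summed to 2061 CPM in member cells of the SBM library and 914 CPM in those of the IMQ library, and all 5 were higher with SBM. Fibroblasts held Ltbp1 at 403 CPM with SBM and 274 CPM with IMQ, Grem1 at 101 CPM with SBM and 73 CPM with IMQ and Id3 at 665 CPM with SBM and 699 CPM with IMQ. The 81 counts of Grem1 with SBM came from 34 cells, of which 1 cell held 17.3% of them. The part of fibroblast RNA in these ratios was not tested. Without subgroups 2 and 4, whose cells held fibroblast and sebaceous markers, the ratios were 2.85 for Ltbp1, 2.51 for Grem1 and 1.23 for Id3. Fibroblast RNA remained higher with SBM in these cells too. The median ratio of the fibroblast markers was 1.14 over all member cells, 1.80 without subgroups 2 and 4 and 1.89 without subgroup 1. It was 1.92 within subgroup 0 and 1.41 within subgroup 3.

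Of 25 measured bulge and stem cell regulators, 9 were higher, 1 was lower and 15 lay between, beside 21.8% higher and 10.2% lower over all genes. The list median was 0.31, and 0.08 with TMM scaling. Sox9, the transcription factor of the outer root sheath and bulge, stood at 416 CPM in member cells of the SBM library and 447 CPM in those of the IMQ library, a ratio of -0.10 (-0.27 to 0.06). Cd34 stood at 38.7 CPM with SBM and 39.1 CPM with IMQ, a ratio of -0.01 (-0.59 to 0.54). The ratio of Cd34 was 1.19 without subgroup 1 and -0.95 without subgroups 2 and 4, and fibroblasts held it at 806 CPM with SBM and 784 CPM with IMQ. Nfatc1, which holds bulge cells quiescent, stood at 77.3 CPM with SBM and 83.1 CPM with IMQ, a ratio of -0.10 (-0.50 to 0.28), and of 0.74 without subgroup 1. Tbx1, a transcription factor of bulge cells, was higher at 109 CPM with SBM and 37.6 CPM with IMQ, but without subgroup 1 its ratio was -0.19. The lower member, Postn, which encodes the matrix protein periostin and is named after its value was seen, stood at 199 CPM with SBM and 567 CPM with IMQ.

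Outer root sheath and companion layer genes were higher in 8 and lower in 1 of 14 measured members, with a median of 0.77. The median was 0.61 without subgroup 1 but 0.08 for cells with Lhx2 or Lgr5, 0.12 with at least 3 of the 4 follicle genes and 0.05 with the rule applied to thinned cells. Krt17, a keratin of the outer root sheath that wounded epidermis also makes, stood at 4959 CPM with SBM and 2743 CPM with IMQ, a ratio of 0.85 (0.80 to 0.91). Its order differed between subgroups, at 9045 CPM with SBM and 5307 CPM with IMQ in subgroup 3 and at 1551 CPM with SBM and 2202 CPM with IMQ in subgroup 0. The gap junction gene Gja1 stood at 811 CPM with SBM and 269 CPM with IMQ, with a ratio of -0.47 without subgroup 1. Egfr, the receptor for epidermal growth factors, stood at 139 CPM with SBM and 66.6 CPM with IMQ. Igfbp5, which binds insulin-like growth factors, stood at 54.9 CPM with SBM and 16.5 CPM with IMQ in member cells and at 1816 CPM with SBM and 1246 CPM with IMQ in fibroblasts. Krt75, the companion layer keratin, had 24 counts with SBM and 2 counts with IMQ. The lower member was the tight junction gene Cldn1, named after its value was seen, at 201 CPM with SBM and 386 CPM with IMQ.

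Basement membrane genes were higher in 10 and lower in 2 of 26 measured members, with a median of 0.39. Shares over all genes were 21.8% higher and 10.2% lower. Col4a1, a chain of the basement membrane collagen, stood at 141 CPM with SBM and 21.5 CPM with IMQ. The laminin chains Lama5 (121 CPM with SBM and 35.6 CPM with IMQ) and Lamc1 (64.8 CPM with SBM and 19 CPM with IMQ) and the integrin chain Itgb6 (73.8 CPM with SBM and 14.5 CPM with IMQ) were higher with SBM. Without subgroup 1 the ratio was 1.10 for Col4a1 and 2.02 for Itgb6. Fibroblasts held Col4a1 at 489 CPM with SBM and 785 CPM with IMQ and Itgb6 at 8.11 CPM with SBM and 4.41 CPM with IMQ. The lower members, named after their values were seen, were Postn and Thbs1, which encodes the adhesion protein thrombospondin and stood at 96.2 CPM with SBM and 253 CPM with IMQ.

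Among genes with a mean of at least 50 CPM the highest ratio was that of Col14a1 (chr15:55307750-55520803, GRCm38), a collagen associated with fibrils of the dermis. It stood at 114 CPM in member cells of the SBM library and 9.52 CPM in those of the IMQ library, a log2 ratio of 3.55 (2.88 to 4.36). Fibroblasts held it at 219 CPM with SBM and 476 CPM with IMQ, in the opposite order, and its ratio without subgroup 1 was 0.30. After Ltbp1 and Col4a1 followed Atp6v1b1, a proton pump subunit, at 149 CPM with SBM and 23 CPM with IMQ, and Creb5, a transcription factor, at 145 CPM with SBM and 25.5 CPM with IMQ. Ccnd1, the cyclin D1 gene, stood at 237 CPM with SBM and 47.6 CPM with IMQ. The others among the 12 highest were Ptch1, Cux1, Sms, Slc39a10, Lap3 and Fzd2, with ratios between 2.07 and 2.46. Without subgroup 1 the ratios were -0.46 for Atp6v1b1, 0.92 for Creb5, 0.82 for Ccnd1, 0.13 for Cux1, 0.33 for Sms and 0.40 for Slc39a10. Sms has a near-identical pseudogene, Sms-ps, in the files, so its counts are uncertain. Lap3, a leucine aminopeptidase, stood at 410 CPM with SBM and 94.7 CPM with IMQ and was present in 29.9% of thinned member cells with SBM and 7.14% with IMQ, and in 3.8% of fibroblasts with SBM and 3.1% with IMQ. Its ratio was -1.08 without subgroup 1.

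Several inflammatory genes of keratinocytes were lower with SBM over all member cells, while others, given below, were higher. S100a8 (chr3:90668978-90670035, GRCm38), a calcium-binding alarmin of inflamed epidermis, stood at 4.5 CPM in member cells of the SBM library and 602 CPM in those of the IMQ library, a ratio of -6.93 (-8.69 to -5.84). Its partner S100a9 had 3 counts with SBM and 397 counts with IMQ, a ratio of -5.98 (-8.49 to -4.65). The antimicrobial siderophore binder Lcn2 stood at 13.5 CPM with SBM and 126 CPM with IMQ, and the cytokine Il24 at 7.2 CPM with SBM and 59.1 CPM with IMQ. Cxcl2, a neutrophil chemokine, stood at 24.3 CPM with SBM and 78.6 CPM with IMQ. Of 15 measured IL-17 and IL-36 response genes, 10 were lower and 2 higher, beside 10.2% lower and 21.8% higher over all genes. The list median was -0.80. Without subgroup 1 the median was 0.07, although S100a8 kept a ratio of -5.72 and Lcn2 one of -1.78. Within subgroup 0 the list median was -0.59 and S100a8 stood at 11.9 CPM with SBM and 388 CPM with IMQ.

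S100a8 was also low in other cells of the same library. In cells without follicle genes S100a8 stood at 4.47 CPM with SBM and 620 CPM with IMQ, in upper follicle keratinocytes at 6.79 CPM with SBM and 539 CPM with IMQ, in fibroblasts at 3.85 CPM with SBM and 71.1 CPM with IMQ, and over all retained cells at 14.8 CPM with SBM and 897 CPM with IMQ. After thinning it was present in 0 of 211 member cells with SBM, which at 1000 counts per cell allows a share of up to 1.42%, and in 17.7% of 322 member cells with IMQ. At full depth 5 of 217 member cells with SBM held a count, a share of 2.3%, beside 37.7% with IMQ. The thinned shares in fibroblasts were 0.221% with SBM and 6.95% with IMQ, and the part of free RNA in the ratio was not tested. Subgroup 5, with 1 cell of the SBM library and 35 of the IMQ library, held S100a8 at 2816 CPM.

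**Figure D3:**
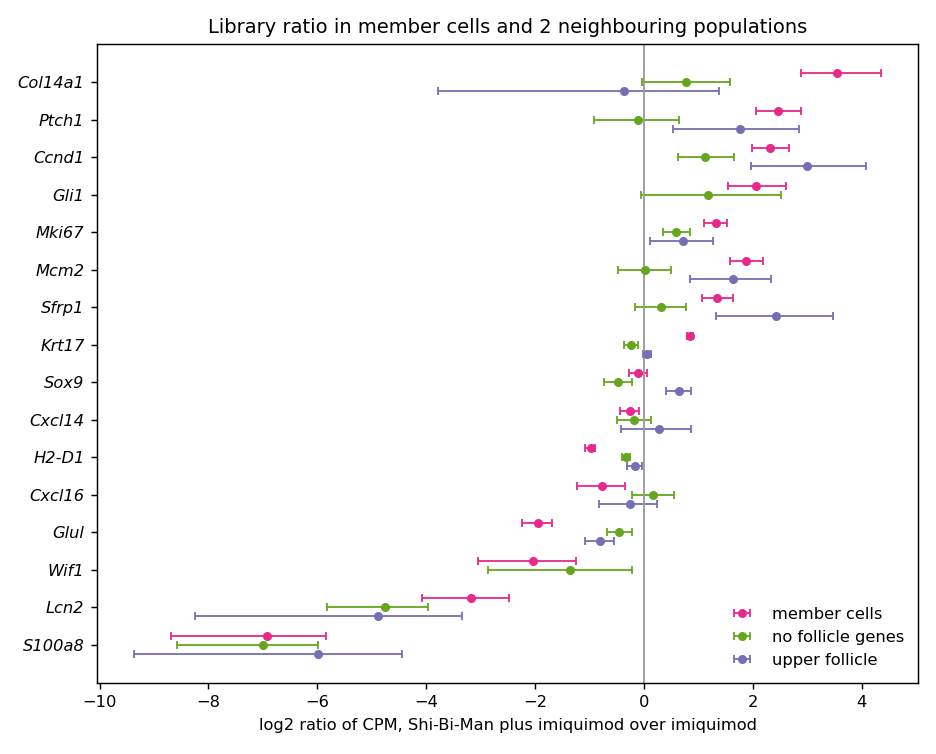
Log2 ratios of CPM, Shi-Bi-Man plus imiquimod over imiquimod, for 16 genes in member cells (pink), in cells of the same keratin range without follicle genes (green, labelled no follicle genes) and in upper follicle keratinocytes (violet); bars are exact 95% intervals for counting error, and populations with fewer than 20 counts of a gene are not drawn. S100a8 and Lcn2 were lower in all 3 populations, while the ratio of Ptch1 was 2.46 in member cells, -0.11 in the cells without follicle genes and 1.77 in upper follicle keratinocytes.

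Keratinocyte cytokines, chemokines and immune ligands were lower in 7 and higher in 3 of 22 measured members, with a median of -0.35, which was 0.07 without subgroup 1. Over all genes, 10.2% were lower and 21.8% higher. Cxcl16, a chemokine named in the title of the series, stood at 54 CPM in member cells of the SBM library and 92.2 CPM in those of the IMQ library, a ratio of -0.76 (-1.22 to -0.34). The ratio of Cxcl16 was 0.16 without subgroup 1, and its level was 107 CPM with SBM and 116 CPM with IMQ within subgroup 0. Cxcl14, a chemokine of resting epithelium, stood at 344 CPM with SBM and 414 CPM with IMQ, a ratio of -0.26 (-0.44 to -0.09). The lectin genes Lgals9 (57.6 CPM with SBM and 147 CPM with IMQ) and Lgals3 (457 CPM with SBM and 892 CPM with IMQ) were lower. Lgals3 had a ratio of 0.12 without subgroup 1, and within subgroup 0 it stood at 1001 CPM with SBM and 793 CPM with IMQ. Ccl7, a monocyte chemokine, and Cd200, an immune-inhibitory surface protein of bulge cells, were higher: Ccl7 stood at 121 CPM with SBM and 60.1 CPM with IMQ, and Cd200 stood at 121 CPM with SBM and 68.1 CPM with IMQ. Fibroblasts held Ccl7 at 1514 CPM with SBM and 2545 CPM with IMQ. The third higher member was the cytokine gene Il6, named after its value was seen, at 45.9 CPM with SBM and 24 CPM with IMQ.

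MHC class I and its loading machinery were lower in 12 and higher in 1 of 20 measured members, with a median of -0.68. For this list and the interferon list below, the shares over all genes were 10.2% lower and 21.8% higher. H2-D1 stood at 1008 CPM with SBM and 1996 CPM with IMQ, a ratio of -0.98 (-1.08 to -0.89). The proteasome genes Psmb10 (16.2 CPM with SBM and 35.6 CPM with IMQ), Psmb8 (81.8 CPM with SBM and 146 CPM with IMQ) and Psme2 (118 CPM with SBM and 243 CPM with IMQ) were lower. Genes of the H2 family are near-identical, and counting could split their reads. The list median was 0.06 without subgroup 1, 0.04 within subgroup 0 and 0.07 within subgroup 3. Subgroup 1 held H2-D1 at 483 CPM, subgroup 0 at 2082 CPM and subgroup 3 at 1839 CPM. Among 9 measured interferon response genes, 2 were higher and 4 lower, and the median of 0.06 turned to -0.16 with TMM scaling. Langerhans cell markers, which include MHC class II genes, summed to 273 CPM with SBM and 1311 CPM with IMQ in member cells. All 3 measured of the 4 markers were lower with SBM, and the defining marker Cd207 stood at 3.6 CPM with SBM and 16 CPM with IMQ. Their part in these ratios was not tested.

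**Figure D4:**
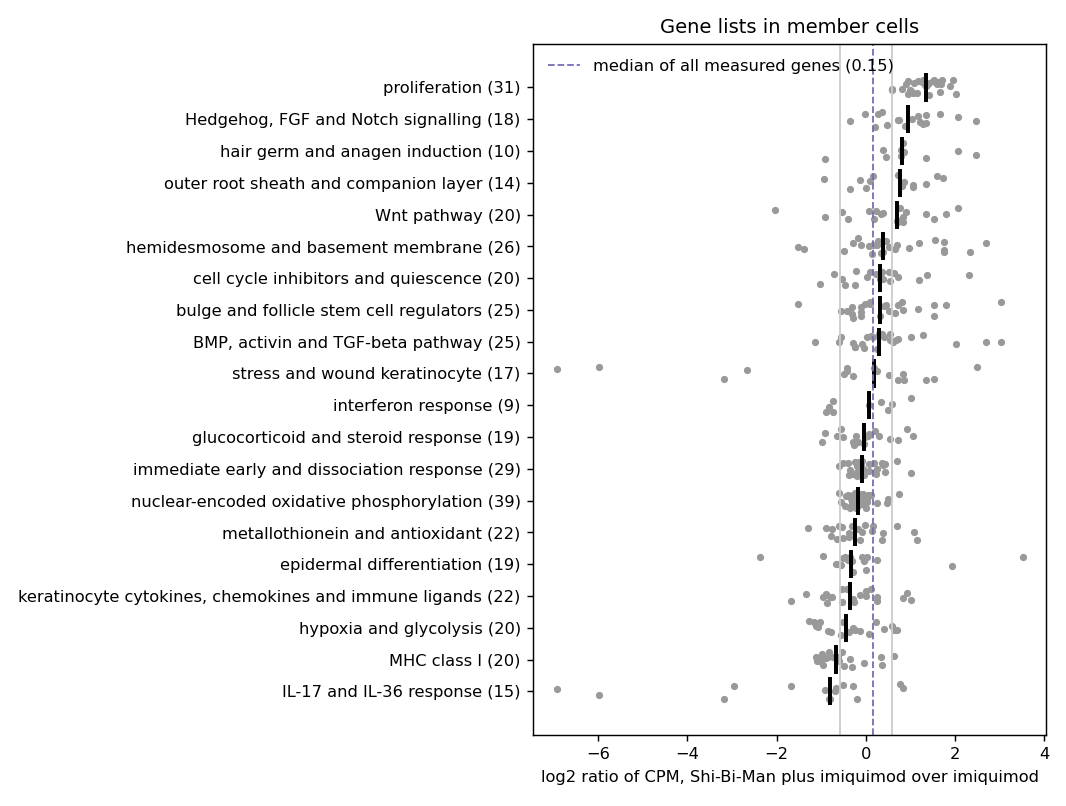
Log2 ratios of CPM in member cells, Shi-Bi-Man plus imiquimod over imiquimod, for measured members of 20 gene lists (grey points, number in brackets), with the list median (black bar), the median of all measured genes (dashed, 0.15) and lines at 1.5-fold. The proliferation list had the highest median, 1.34, and the IL-17 and IL-36 response list the lowest, -0.80.

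Among stress and wound genes, 6 were higher and 4 lower of 17 measured, and the median of 0.18 turned to -0.04 with TMM scaling. All genes had shares of 21.8% higher and 10.2% lower. The cysteine protease inhibitor Stfa1, one of a family of near-identical genes, stood at 41.4 CPM with SBM and 263 CPM with IMQ. Scd1, the stearoyl-CoA desaturase, stood at 267 CPM with SBM and 1228 CPM with IMQ, a ratio of -2.20 (-2.38 to -2.03), and the lipid droplet gene Cidea at 22.5 CPM with SBM and 188 CPM with IMQ. Without subgroups 2 and 4 their ratios were -0.43 and -0.83. Sebaceous markers, Scd1 among them, summed to 720 CPM with SBM and 3083 CPM with IMQ in member cells, and all 4 measured of the 5 markers were lower with SBM. Their part in the ratios of other lipid genes was not tested. Glul, the glutamine synthetase gene, stood at 115 CPM with SBM and 446 CPM with IMQ, with a ratio of -2.16 without subgroups 2 and 4. Within subgroup 0 Glul stood at 281 CPM with SBM and 652 CPM with IMQ.

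Other low genes with ratios between -2.81 and -1.69 were Chil1, Mgst1, Dhrs7, Clec2d, Aadac and Prxl2a. With subgroup 1 left out, ratios were -1.40 for Chil1, -0.87 for Mgst1, -0.97 for Clec2d, -0.46 for Aadac and -0.56 for Prxl2a. Dhrs7 had a ratio of -0.48 without subgroups 2 and 4, and 0.54 (-0.21 to 1.20) within subgroup 0. Hypoxia and glycolysis genes were lower in 8 and higher in 3 of 20 measured members, with a median of -0.44. Shares over all genes were 10.2% lower and 21.8% higher. Slc2a1, the glucose transporter GLUT1, stood at 78.2 CPM with SBM and 169 CPM with IMQ, Vegfa, the endothelial growth factor, at 51.3 CPM with SBM and 114 CPM with IMQ, and Pfkl, a phosphofructokinase, at 18.9 CPM with SBM and 46.6 CPM with IMQ. The list median was -0.18 within subgroup 0 and 0.09 within subgroup 3. Nuclear-encoded oxidative phosphorylation genes were higher in 1 and lower in 1 of 39 measured members, with a median of -0.17. Both counts lay under the shares over all genes. Of this list Ndufb8 was the higher member, at 124 CPM with SBM and 74.1 CPM with IMQ. Ndufa6 was the lower member, at 362 CPM with SBM and 553 CPM with IMQ.

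Cell cycle inhibitors and quiescence genes were higher in 5 and lower in 2 of 20 measured members, with a median of 0.32. These counts were close to the shares over all genes, 21.8% higher and 10.2% lower. Klf4, a differentiation factor of epithelium, stood at 528 CPM with SBM and 1082 CPM with IMQ, and Gas6, a ligand of TAM receptors, at 143 CPM with SBM and 62.1 CPM with IMQ. The list held Ccnd1, which promotes the cell cycle, and its median is therefore not a level of inhibitors alone. The median of the immediate early genes, which respond to tissue dissociation, was -0.08. Of 29 measured members, 2 were higher and 1 was lower, under both shares over all genes. The lower one was Myc, at 274 CPM with SBM and 416 CPM with IMQ, although its ratio was 0.48 without subgroup 1 and its level within subgroup 0 was 669 CPM with SBM and 515 CPM with IMQ. The higher ones were Gadd45a, at 46.8 CPM with SBM and 23 CPM with IMQ, and Hspa1a, at 748 CPM with SBM and 463 CPM with IMQ, whose counts are uncertain because Hspa1b is nearly identical.

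Metallothionein and antioxidant genes were higher in 3 and lower in 6 of 22 measured members, with a median of -0.24. For the lists of this paragraph, the shares over all genes were 21.8% higher and 10.2% lower. The subunits of the enzyme that starts glutathione synthesis had opposite orders: Gclc stood at 52.2 CPM with SBM and 23.5 CPM with IMQ, and Gclm at 87.2 CPM with SBM and 162 CPM with IMQ. Glucocorticoid-response genes were higher in 3 and lower in 3 of 19 measured members, with a median of -0.05. Anxa1, an anti-inflammatory annexin, stood at 621 CPM with SBM and 1229 CPM with IMQ, and Ddit4, an inhibitor of growth signalling, at 132 CPM with SBM and 69.6 CPM with IMQ. Epidermal differentiation genes were higher in 2 and lower in 4 of 19 measured members, with a median of -0.34, against 0.24 without subgroup 1, 0.16 within subgroup 0 and 0.14 within subgroup 3. Fabp5, a fatty acid binding protein gene, stood at 115 CPM with SBM and 603 CPM with IMQ, with a ratio of -0.51 without subgroups 2 and 4. Krt77, a suprabasal keratin, stood at 77.3 CPM with SBM and 6.51 CPM with IMQ in member cells, 148 CPM with SBM and 1.93 CPM with IMQ in fibroblasts, and 827 CPM with SBM and 23.5 CPM with IMQ over all retained cells. The part of free RNA in its ratio was not tested.

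Some genes outside the rule were higher in summed member cells than in the cells without follicle genes and in upper follicle keratinocytes, in both libraries. They describe the members as a sum, and not every subgroup held them at a high level. Among the 15 genes with the highest ratio, taking the lowest of the 4 ratios of each gene, were Slc7a2, Cspg4, Enox1, Hmcn1, Slc38a4, Cldn10, Cntfr, Etv4, Cxcl14, Shisa2, Tyrp1, Neil3, Tulp3 and Rflnb. Some of them were not low in fibroblasts, which held Cldn10 at 127 CPM with SBM and 44.4 CPM with IMQ. Member cells held Cldn10 at 25.2 CPM with SBM and 31.6 CPM with IMQ. Others were low there, such as Slc38a4 at 6.9 CPM with SBM and 4.13 CPM with IMQ. Cspg4, the NG2 proteoglycan, stood at 177 CPM in member cells, 5.96 CPM in cells without follicle genes and 34 CPM in upper follicle keratinocytes of the SBM library. In the IMQ library its levels in the same populations were 53.1, 10.2 and 5.86 CPM. Slc7a2, a transporter of cationic amino acids, stood at 62.1 CPM in member cells, 6.7 CPM in cells without follicle genes and 3.4 CPM in upper follicle keratinocytes with SBM. With IMQ it stood at 38.1, 6.79 and 2.66 CPM in those populations.

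Cntfr, a receptor for ciliary neurotrophic factor, stood at 103 CPM in member cells and 7.44 CPM in cells without follicle genes of the SBM library, and at 25 and 6.79 CPM in those populations of the IMQ library. The Ets-family factor Etv4 stood at 44.1 CPM in member cells and 5.96 CPM in cells without follicle genes with SBM, and at 18 CPM and 4.85 CPM in those populations with IMQ. By subgroup, Cspg4 stood at 229 CPM in subgroup 1, 167 CPM in subgroup 3 and 31.1 CPM in subgroup 0, and so was high in the subgroups that held Lhx2. Rflnb stood at 393 CPM in subgroup 3 and 24.8 CPM over the other member cells. Tyrp1, an enzyme of melanin synthesis, was found in 11 member cells with SBM and 14 with IMQ. Melanocyte markers summed to 229 CPM in member cells with SBM and 288 CPM in those with IMQ, and their part in the level of Tyrp1 was not tested.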

How the data were processed

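Single-cell 3′ RNA sequencing covered 1 library per group, and groups were taken from the treatment in the labels. The deposited matrices give, per the file headers, counts as whole numbers for each gene in each barcode. The submitters' processing notes name the builds mm10 and GRCm38. Which aligner and counter were run, and whether molecular identifiers were collapsed, was not given in the sources used here, and intervals treat counts as independent.

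Cells with at least 200 genes and at most 20% mitochondrial counts were retained. Counts of member cells were summed per library and scaled to a total of 1000000 (CPM). Log2 ratios add 0.5 to each count, with exact conditional binomial 95% intervals, and levels have exact Poisson and shares exact Clopper-Pearson intervals. A gene with at least 50 counts was measured, and at least 1.5-fold called it higher or lower. For shares, cells were thinned to 1000 counts, and a count of 0 was given a limit of 3 counts of the total. Member cells were clustered with Leiden at resolution 0.5 on 2000 variable genes and 20 components. Scrublet marked 83 of 7946 cells with Shi-Bi-Man plus imiquimod and 0 of 11019 with imiquimod, so it did not work in the imiquimod library, and doublets were not removed. Of the member cells, 174 of 217 with Shi-Bi-Man plus imiquimod and 225 of 329 with imiquimod held at least 2 markers of another class. Fibroblasts had at least 50 collagen counts per 10000 and fewer than 10 of Krt5 and Krt14. Upper follicle keratinocytes met the same keratin limits with at least 50 of Krt79 and Cst6.

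Named genes were the 12 highest and 12 lowest ratios with a mean of at least 50 CPM, at least 50% of the level over all cells and no mitochondrial, ribosomal, haemoglobin, immunoglobulin or unnamed genes. Of sex-linked genes, Xist, Tsix and Y-linked genes were left out, and other X-linked genes such as Sms were kept. To these were added the 4 most extreme members of each list, a set of follicle and inflammation genes, and 15 genes of the member profile; some genes that met these rules are not reported here. Members, lists and named genes were chosen with earlier results of these data known. Alternatives covered the rule, filters, scaling, free RNA, doublets and thresholds. Coordinates came from GENCODE for 55230 of 55471 gene entries, and promoters from RefSeq on GRCm38.p6. The calculation was tested on simulated data. Python 3.11.15, Scanpy 1.11.5, SciPy 1.17.1, R 4.3.3, edgeR 4.0.16 (TMM factors only) and DESeq2 1.42.0 (size factors only) were used.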

Additional observations from a re-analysis of the deposited data

How the results depend on the processing

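No paired analysis was possible because each group is 1 library and the labels give no replicate numbers; no library could be left out. The share of retained cells with Shi-Bi-Man plus imiquimod was 5.79% with at least 1 follicle gene, 0.906% with at least 3, 3.21% with at least 500 genes per cell, 1.34% with the rule applied to thinned cells and 0.541% without cells holding markers of another class. With imiquimod the same settings gave 6.59%, 0.436%, 3.58%, 1.28% and 0.944%, and 3.77% with no ceiling on Krt1 and Krt10 or Krt79 and Cst6. Settings added after the data were seen gave 1.82% with Shi-Bi-Man plus imiquimod and 1.11% with imiquimod for cells with Lhx2 or Lgr5, and 1.3% with Shi-Bi-Man plus imiquimod without subgroup 1. The 1554 genes higher and 732 lower became 746 and 371 with at least 3 follicle genes, 512 and 295 with the rule on thinned cells, 240 and 239 without cells holding markers of another class, 915 and 1209 with TMM, 907 and 1224 with DESeq2 size factors, 2514 and 1158 with at least 20 counts, 6410 and 4593 with at least 1 count, and 549 and 275 at 2-fold. Without subgroup 1 there were 821 higher and 659 lower.

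Of 20 lists, 16 had a median of the other sign under at least 1 setting. Settings that changed the cells or the count threshold also changed which genes were measured. Such medians may rest on different genes of a list. Among lists whose median was past 1.5-fold over all members, the sign changed for hair germ (-0.04) and Hedgehog (-0.35) genes without cells holding markers of another class, for Hedgehog genes with at least 3 follicle genes (-0.05), and for IL-17 response (0.07) and MHC class I (0.06) genes without subgroup 1. Smaller medians that did so included cytokines (0.07) and epidermal differentiation (0.24) without subgroup 1, bulge (-0.30) and inhibitor (-0.35) genes with at least 3 follicle genes, BMP genes among cells with Lhx2 or Lgr5 (-0.12), and inhibitors without cells holding markers of another class (-0.98). Of 99 named genes, 30 changed sign under some setting, 24 of them past 1.5-fold over all members. Without subgroup 1 the genes past 1.5-fold were Atp6v1b1 (-0.46), Lap3 (-1.08), Tbx1 (-0.19), Gli1 (-0.36), Wnt10a (0.41), Gja1 (-0.47), Lgals3 (0.12), Psmb8 (0.35), Ifi35 (0.05), H2-Q6 (0.40), H2-D1 (0.04), Mcm6 (-0.26), Myc (0.48), Adm (0.18), Gsr (-0.54), Pdk4 (0.44) and Cxcl16 (0.16), and those within 1.5-fold Ier3 (0.35), Cd34 (1.19), Nfatc1 (0.74) and Sox9 (0.04). Of genes past 1.5-fold, among cells with Lhx2 or Lgr5 Igfbp5 (-0.11), Igfbp3 (-0.03), Dkk3 (-0.06) and Cd200 (-0.06) did so. Without cells holding markers of another class, Mcm2 (-1.01) and Gpx2 (0.64) did, with at least 1 follicle gene Pdk4 (0.17), and with at least 3 Cdh3 (-0.34), Dkk3 (-0.32) and Cd200 (-0.30). The cause was not tested. Leaving out shared barcodes or subgroups 2 and 4 was also added after the data were seen.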
